A study of Aspergillus niger with 24 samples.

Results

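Gene expression at day 3 was compared between a strain of the filamentous fungus Aspergillus niger that expressed a lipase named TLL and its wild type (WT), across all genes of the deposited table. The comparison used 3 TLL day 3 libraries and 3 WT day 3 libraries of the 24 in the series, and 9558 of the 11846 listed genes passed the filter on low values and were tested. TLL day 3 libraries came from hyphae of the TLL-expressing strain of background CICC2629, and WT day 3 libraries from hyphae of wild-type CICC2629. Both strains were cultured on potato dextrose agar at 28 °C, and no other treatment is given in the labels. The promoter and the locus of the introduced gene, and whether the strain is 1 clone, have no mention in the sources used here. The series design gives the sampling times as 0, 24, 48 and 72 hours and does not tie an hour to a labelled day, so the label day 3 is used as it stands. The labels do not say whether replicates were separate cultures, and the p-values therefore cover only the spread between these libraries, which may be technical.

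Aspergillus niger grows as branching hyphae that feed by secreting enzymes onto their substrate and taking up the products, and the species is widely used as a host for making secreted enzymes. Such proteins enter the endoplasmic reticulum, are folded and glycosylated there, and leave at the hyphal tips. Lipases hydrolyse the ester bonds of fats and oils. Genes for different steps of growth, feeding and spore formation are switched on and off as a colony ages.

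The table pairs no gene ID with a name or product, and 0 of its IDs matched the 14404 genes of the reference annotation. No gene is therefore given a function, no gene list was counted, and for each comparison at most 2 IDs are named in each direction. The lipase itself was not analysed here, which leaves the strain labels without that check. Values are in TPM, a transcript level scaled to gene length and to the total of its library. TPM keep no record of read number, so depth is unknown, and a value of 0 may stand for a failed estimate.

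The replicates of both day 3 groups lay close together. Across the tested genes, log2(TPM + 1) values correlated at 0.987 to 0.992 between TLL day 3 libraries and at 0.986 to 0.988 between WT day 3 libraries. The median gene had an SD of 0.134 (log2) in TLL and 0.129 in WT, against 0.286 in TLL day 1 and 0.331 in WT day 1. TLL day 3 had a mean correlation of 0.967 with TLL day 2 and 0.919 with TLL day 4. With WT day 4 it had one of 0.971, and with WT day 2 one of 0.956. WT day 3 had one of 0.901 with TLL day 3, 0.910 with TLL day 4, 0.880 with WT day 2, 0.876 with WT day 4 and 0.840 with WT day 1, while WT day 2 and WT day 4 correlated at 0.957. The deposited table lists the WT day 3 columns first and the TLL day 4 columns next, ahead of WT day 1. The labels name no batch. Whether a batch, or the labels of WT day 3 and TLL day 4 themselves, have a part in these values was not tested, and all strain differences below take the labels as given.

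In the fit on all 24 libraries, the genes called different between the strains at day 3 were nearly as many as those not called. Of 9558 genes, limma called 3078 higher in TLL (32.2%) and 1427 lower (14.9%), together 4505 or 47.1% at an adjusted p under 0.05. Most genes called higher changed by less than 2-fold, and most genes called lower by more than 2-fold. The median size was 0.86 (log2) among the genes that were higher and 1.11 among those that were lower. Changes of at least 2-fold on the log2(TPM + 1) scale were called in 1197 higher genes (12.5%) and 807 lower genes (8.44%), and changes of at least 4-fold in 260 (2.72%) and 268 (2.80%). Changes of at least 8-fold were called in 75 higher genes (0.785%) and 95 lower genes (0.994%), and of at least 16-fold in 19 (0.199%) and 44 (0.460%). Small differences were thus mostly in the direction of higher levels in TLL, and those of 16-fold or more in the direction of lower levels. The 3 libraries of one strain did not overlap with the 3 of the other in 3043 of the 3078 genes called higher and in 1400 of the 1427 called lower. Without a call the same held for 2151 genes, so that 6594 of all 9558 tested genes (69.0%) had no overlap. A gene without a call is thus not shown to be equal in both strains. The number of calls also depended on the fit, with 5730 genes called when the day 1 libraries were left out.

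**Figure D1:**
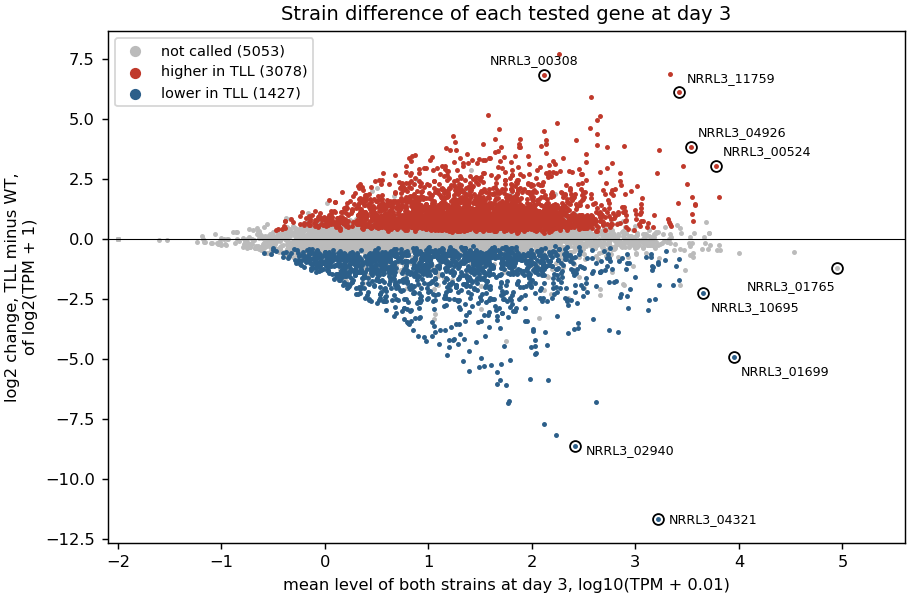
Strain difference of the 9558 tested genes at day 3, as the log2 change of TLL minus WT on the log2(TPM + 1) scale, against the mean level of both strains on a log10(TPM + 0.01) axis. Red points are the 3078 genes higher in TLL, blue points the 1427 lower, grey points the rest, and circles mark the genes named in the text; the lowest point is NRRL3_04321, listed at 0 TPM in all TLL libraries.

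The balance between higher and lower genes depended on how libraries were scaled. On deposited TPM the median gene had a log2 change of 0.19, against -0.01 after median-of-ratios scaling, for which the library factors were 1.01 to 1.09 in TLL and 0.896 to 0.906 in WT. That scaling put 2212 genes above and 2053 below WT, and the genes called higher made up 51.9% of the calls, against 68.3% on deposited TPM. With quantile normalization 2440 genes were higher and 1908 lower, so that 56.1% of the calls were higher. Among changes of at least 4-fold, median-of-ratios scaling called 202 genes higher against 331 lower, and with quantiles these were 220 against 314. Both therefore turned the near-even split of large changes towards lower levels in TLL.

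Between 10 and 1000 TPM more genes were called higher than lower in TLL. Abundance was the mean TPM over all 24 libraries. Of 4904 genes between 10 and 100 TPM, 36.9% were higher and 12.3% lower, and of 1369 genes between 100 and 1000 TPM, 46.7% were higher and 10.3% lower. The median log2 changes of these classes were 0.28 and 0.43. The class below 10 TPM, of 3116 genes, had 590 calls of higher and 664 of lower levels. Of the 169 genes over 1000 TPM, 37 were higher and 18 lower, and 114 were not called, with a median log2 change of -0.09. Under both other scalings the 2 middle classes still held more higher than lower genes, with 1270 against 981 and 482 against 211 for median-of-ratios scaling. That scaling called 431 higher against 834 lower under 10 TPM, and 29 against 27 over 1000 TPM. Large changes below 10 TPM went mostly the other way, with 40 genes higher and 114 lower by at least 4-fold.

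**Figure D2:**
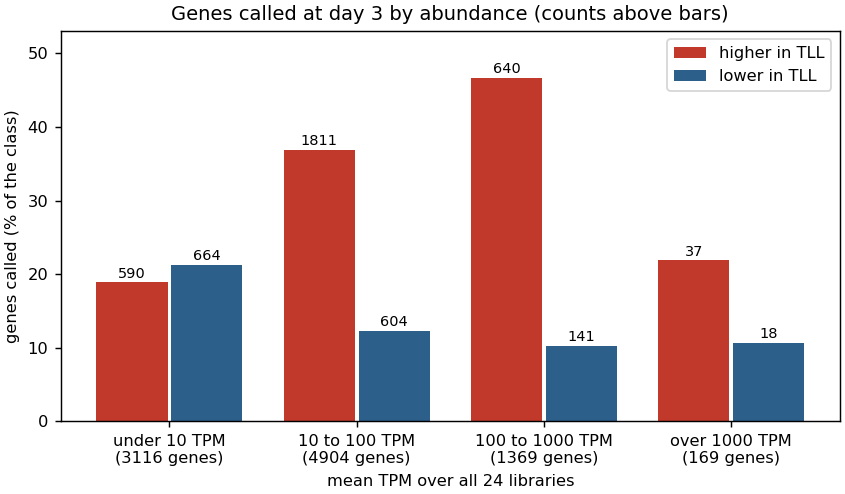
Share of the genes of each abundance class called higher (red) or lower (blue) in TLL at day 3, in percent of the class, with the number of genes above each bar. The class from 100 to 1000 TPM holds 640 higher and 141 lower genes, and the class under 10 TPM holds 590 and 664.

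The called genes took very different parts of the transcript pool in the strains. Genes called higher held 39.4% to 39.9% of the TPM in TLL libraries and 17.0% to 17.2% in WT libraries, and genes called lower held 5.96% to 6.21% in TLL and 17.6% to 18.5% in WT. As these genes were chosen by the same libraries, the shares describe the size of the shift and carry no test. The pool was also less concentrated in TLL. The 10 most abundant genes of a library held 13.0% to 15.5% in TLL and 22.4% to 24.1% in WT. Within these shares the most abundant gene, NRRL3_01765, alone held 5.09% to 5.54% in TLL and 11.5% to 12.9% in WT. Much of the gap between the top 10 shares thus lay in a single gene. The smallest set of genes that held 50% of the TPM numbered 223 to 257 in TLL and 139 to 150 in WT. The 100 most abundant genes of each strain shared 70 genes, and the 10 most abundant shared 4.

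The most abundant transcript at day 3 had a lower mean in TLL day 3 too, without a call. NRRL3_01765, singled out after its values were seen, ranked first in both strains at day 3. It held 55394, 52857 and 50867 TPM in TLL replicates 1, 2 and 3, against 128907, 126073 and 114969 TPM in the WT replicates. The groups did not overlap, yet the difference missed the threshold, with a log2 change of -1.22 (SE 0.50, adjusted p = 0.0529 in limma). The fit on all libraries takes its spread from day 1 as well, where this gene held 2104 to 11502 TPM in TLL and 4777 to 21669 TPM in WT. Without the day 1 libraries the same log2 change passed (adjusted p = 1.24e-06 in limma), and quantile normalization sets the top rank equal in all libraries, which leaves no change to test. At day 2 NRRL3_01765 averaged 24092 ± 2721 TPM in TLL, against 32203 ± 5017 TPM in WT (SD, n = 3 each). At day 4 it averaged 128657 ± 1972 TPM in TLL, against 122042 ± 13947 TPM in WT (SD, n = 3 each). Rescaling every library to its total without this gene gave the median gene a day 3 log2 change of 0.10 with 2643 genes higher and 1637 lower.

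**Figure D3:**
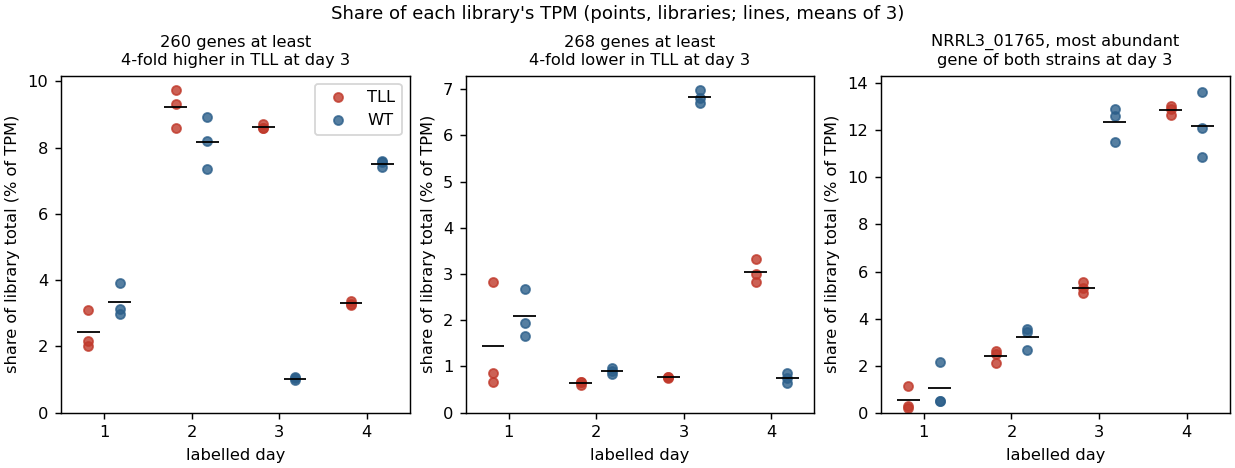
Share of the TPM total held in each library (points, with the mean of 3 as a line) by the 260 genes at least 4-fold higher in TLL at day 3, the 268 genes at least 4-fold lower, and NRRL3_01765, by labelled day for TLL (red) and WT (blue). At day 3 the first set holds 8.58% to 8.71% in TLL and 0.988% to 1.07% in WT, the second 0.756% to 0.775% in TLL and 6.71% to 6.97% in WT.

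Among genes with a change of at least 4-fold, NRRL3_00524 and NRRL3_04926 had the largest differences in mean TPM with the higher level in TLL. NRRL3_00524 held 10090, 10830 and 10957 TPM in TLL day 3 replicates 1, 2 and 3, against 1274, 1325 and 1269 TPM in WT day 3. Every TLL library lay far above every WT library, by a ratio of group means of 8.24 (log2 change 3.04, SE 0.23, adjusted p = 3.10e-09 in limma), and the gene ranked 3 in TLL and 109 in WT. NRRL3_04926 held 6625, 6441 and 6000 TPM in TLL day 3, against 432, 585 and 340 TPM in WT day 3. The ratio of means was 14.0 (log2 change 3.84, SE 0.60, adjusted p = 3.05e-05 in limma), with rank 6 in TLL and 321 in WT.

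On days 2 and 4 both genes were also high in WT. NRRL3_00524 averaged 12038 ± 1121 TPM in TLL day 2, against 10088 ± 817 TPM in WT day 2 (SD, n = 3 each). At day 4 it averaged 2110 ± 120 TPM in TLL, against 9331 ± 776 TPM in WT (SD, n = 3 each). NRRL3_04926 averaged 8162 ± 2216 TPM in TLL day 2, against 11017 ± 1519 TPM in WT day 2 (SD, n = 3 each). At day 4 the averages were 142 ± 15.8 TPM in TLL, against 4407 ± 758 TPM in WT (SD, n = 3 each). Both genes were thus low in WT at day 3 and in TLL at day 4, and high in the other groups of days 2 to 4.

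Among called genes with a change of at least 4-fold, NRRL3_01699 had the largest difference in mean TPM with the lower level in TLL. It held 565, 613 and 528 TPM in TLL day 3 replicates 1, 2 and 3, against 17427, 17540 and 16621 TPM in WT day 3. It ranked 287 in TLL and 3 in WT. The mean was 30.2 times higher in WT than in TLL (log2 change -4.92, SE 0.37, adjusted p = 2.55e-09 in limma). It averaged 701 ± 84.3 TPM in TLL day 2, against 649 ± 64.4 TPM in WT day 2 (SD, n = 3 each). At day 4 its level was 9475 ± 2152 TPM in TLL, against 512 ± 52.3 TPM in WT (SD, n = 3 each). The level of TLL day 3 thus resembled those of day 2 in both strains, and the high level was seen in WT at day 3 and in TLL at day 4.

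NRRL3_10695 was lower in TLL on both day 2 and day 3. It held 1769, 1464 and 1478 TPM in TLL day 3, against 7278, 6532 and 8577 TPM in WT day 3, a mean 4.75 times higher in WT (log2 change -2.24, SE 0.47, adjusted p = 0.000548 in limma). At day 2 it held 329, 281 and 143 TPM in TLL, against 1225, 1799 and 1332 TPM in WT (log2 change -2.59, SE 0.47, adjusted p = 0.00199 in limma). At day 4 the averages stood the other way, with 3076 ± 289 TPM in TLL, against 1392 ± 714 TPM in WT (SD, n = 3 each). Its strain differences of day 3 and day 2 were not shown to differ (difference 0.35, SE 0.66, adjusted p = 0.734 in limma).

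**Figure D4:**
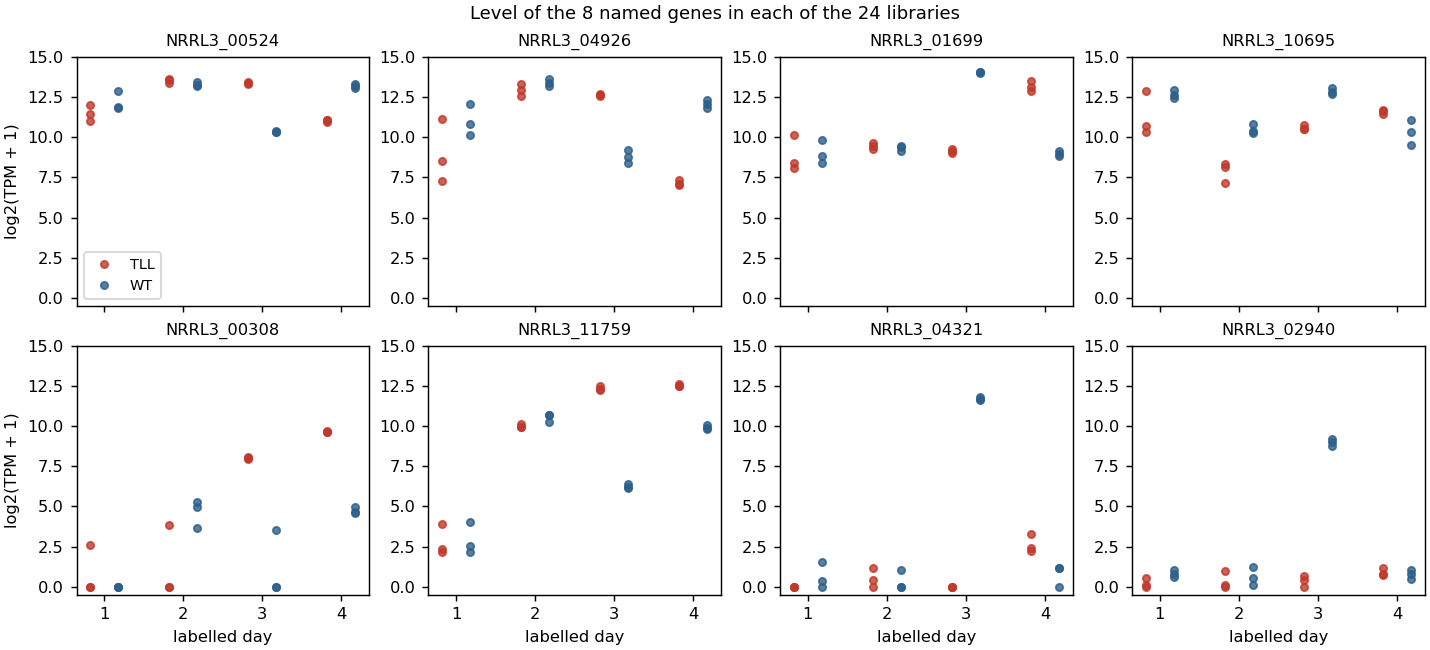
Levels of the 8 named genes in each of the 24 libraries on the log2(TPM + 1) scale by labelled day, for TLL (red) and WT (blue). NRRL3_04321 and NRRL3_02940 rise above the other groups in WT day 3, while NRRL3_11759 is low in WT day 3 between 2 days with higher WT levels.

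The genes with the largest day 3 differences were followed on the other days. The sets were chosen by the day 3 difference, and the libraries of the other days entered the choice through the filter and the estimate of the spread. The 75 genes at least 8-fold higher in TLL at day 3 had a median of 125 TPM in TLL day 3, against 9.03 TPM in WT day 3. At day 2 their median was 96.2 TPM in TLL, against 82.4 TPM in WT. At day 4 it was 20.4 TPM in TLL, against 116 TPM in WT. At day 2 limma called 21 of the 75 higher and 3 lower in TLL, against 8.22% and 1.49% of all tested genes. At day 4 it called 6 higher and 63 lower, against 27.3% and 26.8% of all genes, with a median log2 change of -2.42. Thus 63 of the 75 were on the opposite side at day 4.

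The 95 genes at least 8-fold lower in TLL had a median of 1.57 TPM in TLL day 3, against 68.0 TPM in WT day 3. At day 1 their median was 3.98 TPM in TLL, against 6.32 TPM in WT, and at day 2 it was 2.58 TPM in TLL, against 2.83 TPM in WT. At day 4 it was 5.18 TPM in TLL, against 2.79 TPM in WT, and the set held 1.20% of the TPM in TLL, against 0.123% in WT. At day 2, 1 of the 95 was called higher and 3 lower in TLL, against 8.22% and 1.49% of all tested genes. At day 4, 44 were higher and 11 lower, against 27.3% and 26.8% of all tested genes. WT day 3 had the highest mean of the 8 groups in 84 of the 95 genes, and in 11.5% of all tested genes. It had the lowest mean in 38 of the 75 genes higher in TLL, and in 22.5% of all tested genes. Both counts rest in part on the WT day 3 libraries that chose the sets.

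**Figure D5:**
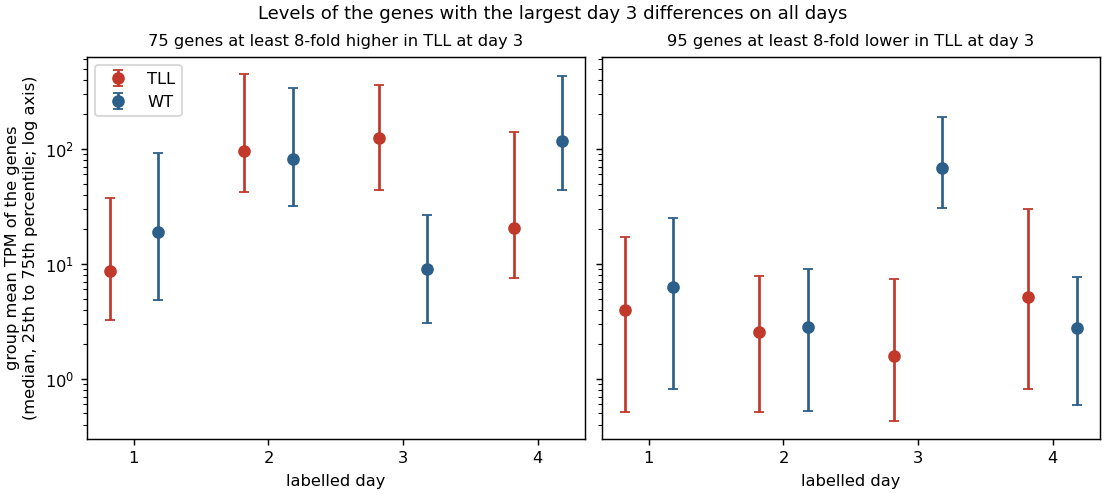
Median (points) and 25th to 75th percentile (bars) of the group mean TPM, on a log axis, for the 75 genes at least 8-fold higher and the 95 genes at least 8-fold lower in TLL at day 3, by labelled day for TLL (red) and WT (blue). At day 3 the first set stands at a median of 125 TPM in TLL and 9.03 TPM in WT, and the second at 1.57 TPM in TLL and 68.0 TPM in WT, above the at most 6.32 TPM of the second set in all other groups.

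Genes whose day 3 levels lay outside the range of every other library of the series were counted for both strains. All 3 TLL day 3 libraries lay above all 21 other libraries in 134 genes (1.40%) and below them in 37 (0.387%). All 3 WT day 3 libraries lay above the 21 others in 506 genes (5.29%) and below them in 862 (9.02%). Of the 75 genes at least 8-fold higher in TLL, 7 were among the 134 and 23 among the 862. Of the 95 at least 8-fold lower, 2 were among the 37 and 68 among the 506. Both sets were chosen with the same day 3 libraries, so these counts are a description.

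TLL day 3 was also set against the neighbouring WT days. Against WT day 4 limma called 1129 genes (11.8%), 627 higher (6.56%) and 502 lower (5.25%) in TLL day 3, and against WT day 2 it called 2166 (22.7%), 1194 higher (12.5%) and 972 lower (10.2%). Between day 2 and day 3, TLL changed in 1710 genes (17.9%) and WT in 5125 (53.6%). These comparisons share libraries with the day 3 strain difference and are given side by side only.

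The strain difference of day 3 was tested against that of day 2, whose means rest on other libraries but whose spread does not. It differed for 2588 genes (27.1%), being more positive at day 3 in 1443 (15.1%) and more negative in 1145 (12.0%). That balance depended on scaling, with 1437 against 1375 genes after median-of-ratios scaling and 1231 against 1350 after rescaling without NRRL3_01765. At day 2 itself 786 genes were higher (8.22%) and 142 lower (1.49%) in TLL. Of those 786, 460 (58.5%) were also higher at day 3, where they were 14.9% of the genes called higher, and of the 142, 43 (30.3%) were also lower at day 3, where they were 3.01% of the genes called lower. On the opposite side at day 3 were 79 of the 786 (10.1%) and 26 of the 142 (18.3%). Of all tested genes, 32.2% were called higher and 14.9% lower at day 3. Across the 9558 genes the differences of both days correlated at r = 0.20 and rho = 0.20, as a description, since genes are not independent replicates.

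The largest shifts towards TLL between these days were those of NRRL3_00308 and NRRL3_11759. NRRL3_00308 held 272, 258 and 244 TPM in TLL day 3, against 0, 0 and 10.7 TPM in WT day 3. At day 2 it was listed at 0, 13.5 and 0 TPM in TLL and at 37.2, 11.8 and 30.6 TPM in WT, and at day 4 it held 787, 810 and 831 TPM in TLL and 29.8, 24.7 and 23.4 TPM in WT. The difference between days was 10.19 (log2, SE 1.29, adjusted p = 8.16e-06 in limma). Values at 0 set much of its size: it was 7.09 with a pseudocount of 5 TPM and 14.6 with 0.1 TPM, and the day 3 change of 6.83 became 8.02 without WT day 3 replicate 3 and 6.24 without WT replicate 1 or 2. Without TLL day 2 replicate 2 the difference was 11.5, without TLL day 2 replicate 1 or 3 it was 9.54, and without WT day 3 replicate 3 it was 11.4.

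NRRL3_11759 held 5796, 4883 and 5005 TPM in TLL day 3, against 73.2, 82.8 and 69.0 TPM in WT day 3. The groups were 69.7-fold apart by their means (log2 change 6.10, SE 0.38, adjusted p = 1.08e-10 in limma). At day 2 they were close, with 1033 ± 95.4 TPM in TLL, against 1517 ± 246 TPM in WT, and at day 4 the gene averaged 6006 ± 342 TPM in TLL, against 975 ± 83.9 TPM in WT (SD, n = 3 each). The difference between days 3 and 2 was 6.65 (log2, SE 0.53, adjusted p = 1.59e-08 in limma). Unlike NRRL3_00524 and NRRL3_04926, it remained high in TLL at day 4.

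The largest shifts the other way were those of NRRL3_04321 and NRRL3_02940. NRRL3_04321 had a listed level of 0 in each of the 3 TLL day 3 libraries, against 3286, 3550 and 3126 TPM in WT day 3, and no fold is given. Its limma adjusted p was 1.29e-14 for the day 3 difference and 1.02e-11 for that between days. In all libraries of the other groups it lay between 0 and 8.88 TPM, the highest in TLL day 4. NRRL3_02940 held 0.310, 0 and 0.610 TPM in TLL day 3, against 518, 591 and 441 TPM in WT day 3, and no other library passed 1.33 TPM. Its log2 change was -8.65 (SE 0.28, adjusted p = 8.20e-15 in limma), and its difference between days was -8.39 (SE 0.40, adjusted p = 1.02e-11 in limma). As its TLL values lie below the pseudocount, the pseudocount sets these sizes: the day 3 change was -6.61 with 5 TPM and -10.70 with 0.1 TPM, and the difference between days -6.54 and -9.74. Outside WT day 3 both genes stayed under 10 TPM in every library.

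Genes with large changes were often consecutive in ID number. The IDs run from 1 to 11846 without a gap, and the position of the genes on chromosomes was not used here. Of the 260 genes at least 4-fold higher in TLL, 59 (22.7%) had a neighbour in number that was at least 4-fold higher too and 7 (2.69%) a neighbour at least 4-fold lower. Of the 268 genes at least 4-fold lower, 74 (27.6%) had a neighbour that was lower and 7 (2.61%) one that was higher. Among all 11846 genes, 4.26% had a neighbour at least 4-fold higher and 4.30% one at least 4-fold lower. Runs of 3 or more consecutive IDs with the same direction numbered 8 for higher genes, covering 25 genes with a longest run of 4, and 8 for lower genes, covering 28 genes with a longest run of 5. NRRL3_01699 ended a run of 3 in which TLL day 3 means were 34.4 to 568 TPM and WT day 3 means 476 to 17196 TPM, and NRRL3_04321 stood in the middle of another run of 3. The files do not say whether counting used strand, so reads of overlapping neighbours cannot be told apart.

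The precision of the strain difference was read from genes with a mean of at least 10 TPM over all libraries, since the pseudocount narrows the intervals of lower genes. Of these 6442 genes, 3388 (52.6%) had a 95% interval of the log2 change within 2-fold in both directions, and 1097 (17.0%) within 1.5-fold. Of the 169 genes over 1000 TPM, 99 (58.6%) had an interval within 2-fold. For 632 of the 3191 genes of at least 10 TPM that were not called, the interval reached past 2-fold, so a change of that size was within it. All these intervals use a spread pooled over the 24 libraries and are not the precision of the day 3 replicates alone. The median SD (log2) was 0.286 in TLL day 1 and 0.331 in WT day 1, against 0.134 in TLL day 3 and 0.129 in WT day 3.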

How the data were processed

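RNA of hyphae was sequenced on Illumina libraries, per the labels' protocols, and the authors deposited 1 table of TPM values with 11846 genes and a column per library. HISAT2, StringTie and Cufflinks are named in the submitters' processing notes without roles, and the name of the table refers to RSEM, so the tool behind the TPM is not settled. The build is not given in the sources used here. Depth is unknown, so precision rests on 3 libraries a group.

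Columns were matched to samples by library name. Genes that reached 1 TPM in 3 or more libraries were tested on log2(TPM + 1), which understates the changes of low genes, with limma 3.58.1 (R 4.3.3). The model had a mean for each of 8 groups over 24 libraries, 16 residual degrees of freedom and variances moderated by empirical Bayes with a trend. Tests were two-sided, and a call is a Benjamini-Hochberg adjusted p under 0.05 over all genes tested. The model was tested on simulated data that gave each gene the same spread in all libraries. The wider spread of the day 1 replicates was thus not simulated.

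Named genes needed a call, 10 TPM or more as the mean of the higher group, and groups that do not overlap. For day 3 they are the 2 each way with the largest difference in mean TPM and at least a 4-fold change. For day 3 against day 2 they are the 2 each way with the largest difference. The comparison, lists and rules were chosen with earlier results of these data known. Lists by symbol or product could not be used, since 0 IDs matched. Alternatives were other pseudocounts, filters, scalings, a replicate block, library weights, no trend, fewer libraries and leaving out each library. Fits on fewer libraries kept the same genes.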

Additional observations from a re-analysis of the deposited data

Results flagged for a closer look

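The strain difference of day 3 differed from that of day 2 in 2588 genes by the limma test of the difference itself. For that reason 7 of the 8 named genes are listed here. NRRL3_00308, NRRL3_11759, NRRL3_04321 and NRRL3_02940 were named by a rule on this same difference, so their listing followed from the choice. On the log2(TPM + 1) scale the difference, day 3 minus day 2, was 2.79 for NRRL3_00524 (SE 0.33, limma adjusted p = 3.67e-06) and 4.30 for NRRL3_04926 (SE 0.85, limma adjusted p = 0.000802). It was -5.03 for NRRL3_01699 (SE 0.53, limma adjusted p = 7.61e-07), 10.19 for NRRL3_00308, 6.65 for NRRL3_11759 and -8.39 for NRRL3_02940. For NRRL3_04321, listed at 0 in TLL day 3, the fitted difference of -11.87 depends on the pseudocount and is not read as a fold. At day 2 the strain difference of NRRL3_00308 was called on the other side (-3.35, SE 0.91, limma adjusted p = 0.0260), with 2 of 3 TLL day 2 libraries listed at 0. No group of 3 libraries was searched for single outlying samples.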

How the results depend on the processing

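All 8 genes named by rule kept the direction and the call of their day 3 difference under every alternative run for it. The difference between days was rerun only for NRRL3_00308, NRRL3_11759, NRRL3_04321 and NRRL3_02940, and it kept its direction and call in each. For the day 3 difference the 4505 calls lay between 3867 and 4000 when 1 library was left out (fewest without TLL replicate 3), and for the difference between days the 2588 calls lay between 2136 (without TLL day 2 replicate 3) and 2464. Library weights raised the counts to 6820 and 5687, with weights whose estimation stopped before full convergence. The fit on the compared libraries alone gave 6056 and 4106, and leaving out day 1, an alternative added after seeing the data, 5730 and 4121. These fits leave out or weigh down the day 1 libraries, whose replicates spread most. With the replicate number as a block 4522 and 2649 genes were called, and no call of a named gene changed. Same-numbered TLL and WT libraries of day 3 correlated in their deviations at 0.054, -0.017 and 0.157, and differently numbered ones at -0.132 to 0.082. Deviations from a mean of 3 libraries depend on each other, so these values cannot decide whether the numbers mark pairs. The main fit did not take them as pairs. NRRL3_01765 passed under 7 alternatives and had no change under quantile normalization. Pseudocounts of 0.1 and 5 TPM moved the log2 change of NRRL3_02940 to -10.70 and -6.61. The unknown depth limits what a value of 0 can show.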
